A study of Mus musculus with 72 samples.

Results

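Reporters integrated on mouse chromosome 9 were described along its length, with their runs of high and low expression, the gaps between them and the pools behind each. They were chosen by position alone, as every listed integration whose mm9 position lies on chromosome 9, which gave 971 of 17857 integrations (5.44%). Each reporter carried the same promoter, that of the mouse phosphoglycerate kinase gene (mPGK), its own random barcode and piggyBac transposon ends, in the pooled reporter assay known as TRIP. The host cells were EBRTcH3 mouse embryonic stem cells, a single line in which the Rosa26 locus drives a tetracycline-controlled transactivator. All groups shared this line, this reporter and a sort for low eGFP signal, so cells outside that sort gate were not represented. The 6 groups of cells were the pools mPGK-A, mPGK-B, mPGK-C, mPGK-D, mPGK-E and mPGK-F, which carry the same genotype and treatment in the labels and differed in which integrations they held. Each pool was divided into 2 cultures, the technical replicates, and barcodes were read from RNA (expression), from genomic DNA (normalization) and from inverse PCR products that placed them in the genome (mapping). This made 72 libraries. P-values within a pool therefore measure only the spread between cultures of that pool, while comparisons over the 6 pools use separately made sets of integrations.

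A reporter with a fixed promoter reads out the effect of its surroundings, known as a position effect. Active, gene-rich regions and silent regions such as heterochromatin or lamina-associated domains alternate along mammalian chromosomes, and a housekeeping promoter such as that of phosphoglycerate kinase, a glycolytic enzyme, works in most cell types but still varies with its place of insertion. The piggyBac transposon inserts at TTAA tetranucleotides and is known to favour open chromatin. Gene annotation of mm9 was not used here, so positions are given without genes, exons or introns.

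For each barcode, its share of the RNA reads of the pool's listed barcodes was divided by its share of their DNA reads, and expression is the log2 of this ratio, averaged over both replicates, with the pool median set to 0. A value of 1 is therefore a 2-fold higher output per integrated copy than the median reporter of the same pool. Read totals of the listed barcodes per pool and replicate ran from 3386477 to 3693449 for DNA and from 2880244 to 3508366 for RNA, and a chromosome 9 integration had a median of 1592 DNA and 554 RNA reads, replicates summed. The error of a single replicate, as an SD, was 0.76 log2 units over all 971 integrations, 0.42 for the 663 whose RNA reads numbered 100 or more per replicate and 1.20 for the other 308. Spearman correlations between the replicates of a pool over chromosome 9 integrations lay between 0.920 (mPGK-B) and 0.955 (mPGK-C).

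The integrations of chromosome 9 ran from position 3404335 to position 124044142, a span of 120.64 Mb, with 490 reporters on the plus strand and 481 on the minus strand. The pools contributed 134 (mPGK-A), 194 (mPGK-B), 126 (mPGK-C), 178 (mPGK-D), 181 (mPGK-E) and 158 (mPGK-F) of them. In all, 64 chromosome 9 barcodes were also listed in another pool.

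The barcodes below are those of the 5 highest integrations and of the 5 lowest, the last being those without any RNA read ranked by DNA reads. They are shown because they tag the reporters with the highest output and the most abundant ones without detected RNA. The letters are random tags, 5′ to 3′ as listed, and no stretch of them is marked.
Highest, mPGK-C, chr9:108555346, minus strand: agcaagcagaacgtat
Highest, mPGK-E, chr9:64115531, plus strand: acatgagaatggcagg
Highest, mPGK-A, chr9:96393069, plus strand: actagatatgatggtc
Highest, mPGK-C, chr9:59046251, minus strand: cgaacacctttgatac
Highest, mPGK-B, chr9:62665169, minus strand: gtaccagtgtcgccca
Lowest, mPGK-A, chr9:48974348, minus strand: cagtcccagtgaagtc
Lowest, mPGK-E, chr9:48843138, minus strand: tttttactttagtcat
Lowest, mPGK-D, chr9:28992595, plus strand: ttatgagataataacc
Lowest, mPGK-C, chr9:70324786, minus strand: tccaaccaacggatac
Lowest, mPGK-F, chr9:93535713, minus strand: ctaatatacgtcctgc

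The highest reporter, in mPGK-C at chr9:108555346, had 205 and 404 DNA reads in replicates 1 and 2 against 6171 and 5925 RNA reads. Its expression was 6.32 and 5.40, with a mean of 5.86, or 58.0-fold above the pool median. The next, in mPGK-E at chr9:64115531, had 330 and 694 DNA reads and 7592 and 8071 RNA reads and lay at 5.58. This high reporter did not stand alone, since a reporter of another pool, mPGK-B, 0.863 kb away lay at 4.51. The reporters at chr9:96393069 (5.17), chr9:59046251 (5.13) and chr9:62665169 (5.06) came from mPGK-A, mPGK-C and mPGK-B and each lay within a high stretch as defined below, the last 2 in stretches of 7 and 8 reporters at chr9:59030286-59138596 and chr9:62302658-62718056.

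At the other end, the mPGK-A reporter at chr9:48974348 had 8755 and 9825 DNA reads, the most of any chromosome 9 reporter, and 0 RNA reads in both replicates. Taking 3 RNA reads, summed over the replicates, as the floor, which covers counting error only, it was at least 2106-fold lower than the pool median. The mPGK-E reporter at chr9:48843138, with 1674 and 830 DNA reads and 0 RNA reads, was at least 285-fold lower. These 2 reporters lay in the same low stretch as defined below, in different pools. They were separated by 2 other integrations with RNA reads, at 1.16 (mPGK-E) and −3.03 (mPGK-D). The bounds for chr9:28992595, chr9:70324786 and chr9:93535713 were 83.8-fold, 91.8-fold and 91.5-fold, limited by their lower DNA counts. Some reporters with a few RNA reads were as low, since an mPGK-C reporter at chr9:13422785 with 4331 and 2948 DNA reads had 7 and 0 RNA reads (−9.38). An mPGK-E reporter at chr9:35892998 with 1242 and 1073 DNA reads had 3 and 0 RNA reads (−8.23). Both values rest on the pseudocount in the replicate without RNA reads. In all, 7 chromosome 9 reporters (0.721%) had no RNA read, against 1.03% of all listed integrations.

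Between these ends, the 5th to 95th percentile of expression on chromosome 9 ran from −4.23 to 3.40, a 199-fold range, and the middle 50% of reporters covered 8.14-fold. More than 16-fold below the pool median lay 61 reporters (6.28%, against 6.48% of all listed integrations), and more than 16-fold above it lay 19 (1.96%, against 2.47%). Tested one by one with edgeR's quasi-likelihood test of RNA against DNA counts, adjusted by Benjamini-Hochberg over all 17857 integrations, 363 of the 971 reporters (37.4%) were higher than the pool median and 324 (33.4%) lower. Over all integrations the same test called 36.9% higher and 33.7% lower, so the shares on chromosome 9 were near the background. When TMM scaling was left without centring on the pool median, the split turned to 323 higher and 361 lower.

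No difference in the level of the chromosome as a whole was detected. The mean of chromosome 9 reporters minus the mean of all others was 0.01 in mPGK-A, 0.03 in mPGK-B, 0.11 in mPGK-C, 0.05 in mPGK-D, 0.03 in mPGK-E and −0.11 in mPGK-F. It was above 0 in 5 of 6 pools, with a mean of 0.02 ± 0.07 (SD, n = 6 pools), which is less than the spread between pools (exact two-sided sign-flip permutation test, p = 0.531, where 6 pools can give no p below 0.03125). No strand difference was detected either, since the plus strand minus the minus strand was −0.03 ± 0.30 (SD, n = 6 pools, p = 0.812 by the same exact permutation test), with the plus strand higher in 3 of 6 pools. The sign of that strand difference turned when mPGK-B (0.047) or mPGK-D (0.003) was left out.

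**Figure D1:**
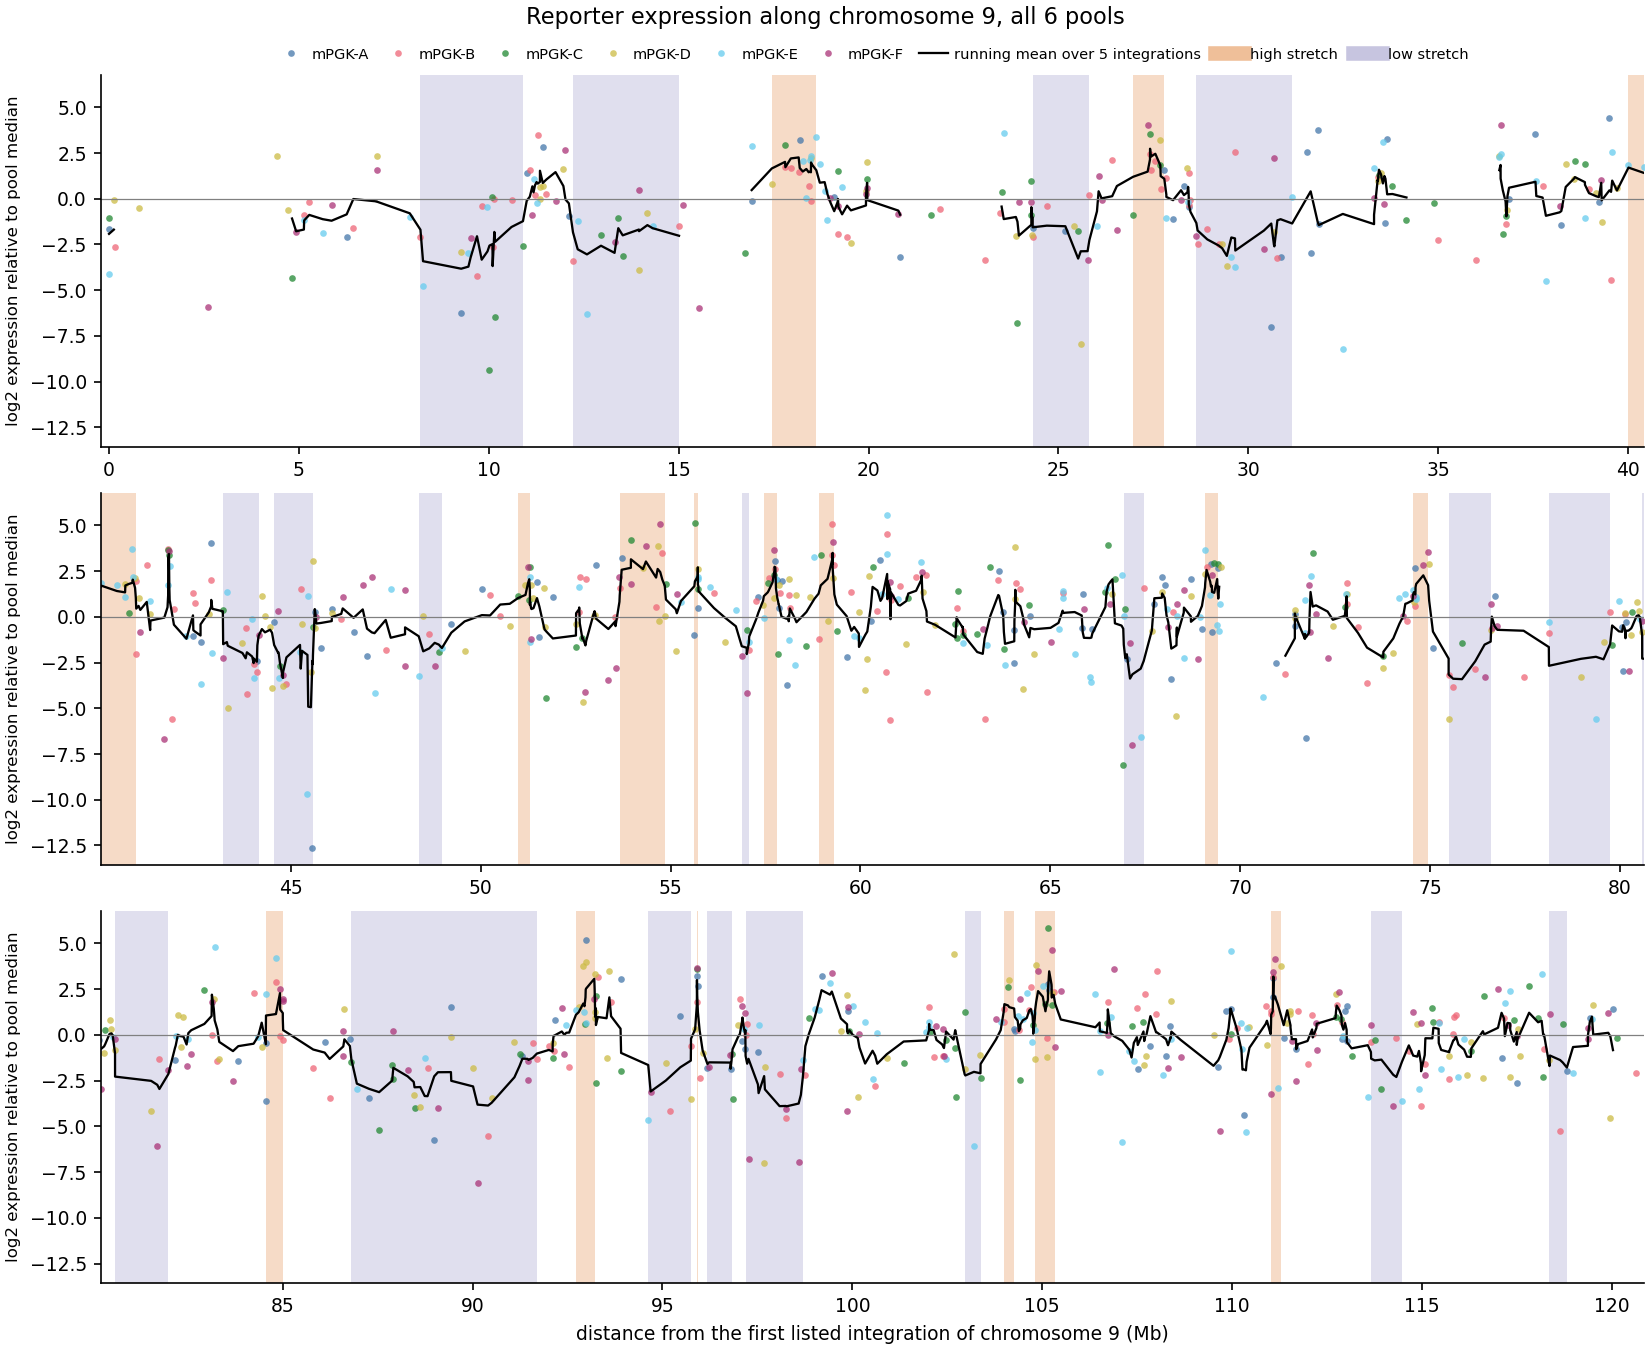
Log2 expression of the 971 chromosome 9 reporters relative to the pool median (y axis) against the distance in Mb from the first listed integration (x axis, continued over 3 rows). Points are reporters coloured by pool, the black line is the running mean over 5 neighbouring integrations, and shading marks the 16 high and 19 low stretches. Low stretches are mostly wider and more thinly filled than high ones, with exceptions of both kinds.

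Along the chromosome, high and low reporters came in runs. A high stretch was defined as at least 5 consecutive integrations, from at least 2 pools, whose running mean over 5 integrations was at least 1, and a low stretch as the same at −1 or below. A running mean was never taken across a gap of 1 Mb or more. The rule gave 16 high stretches with 144 reporters (14.8%) and 19 low stretches with 186 reporters (19.2%). The other 641 reporters had a mean of −0.03 ± 2.04 (SD). Since the stretches were chosen on these values, their levels are given as a description, and such a rule also finds runs in values without any order along the chromosome, so a single stretch is no test of itself.

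High stretches were mostly the smaller ones in span, though not in reporters, with a median of 8.5 reporters against 7 in low stretches. The median span of high stretches was 406 kb, from 26.6 kb to 1185 kb, and together they covered 8.03 Mb, or 6.66% of the span. Low stretches had a median span of 1107 kb, from 196 kb to 4885 kb, and covered 26.8 Mb, or 22.2%. Reporters were spaced accordingly, with 17.9 integrations per Mb in high stretches and 6.95 per Mb in low ones, against 8.05 over the whole span. Single stretches departed from this, such as the low stretch chr9:60280042-60475711 with 25.6 per Mb and the high stretch chr9:43415661-44323422 with 9.91. Neither kind was uniform, since 16 of the 144 reporters in high stretches (11.1%) lay below the pool median and 25 of the 186 in low stretches (13.4%) lay above it. The median DNA count was 1465 in high stretches, 1318 in low stretches and 1726 elsewhere, and its part in the levels was not tested. Of the reporters more than 16-fold below the median, 33 lay in low stretches, 28 between stretches and 0 in high stretches. This split is largely built in, since the same values had placed the stretches.

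The widest and most populated stretch was low and ran from chr9:90213177 to chr9:95097685, 4885 kb with 28 reporters. Its mean was −2.45 ± 2.07 (SD over reporters), and 26 of the 28 lay below the pool median. All 6 pools had reporters there, and their means were −2.20 (mPGK-A), −2.29 (mPGK-B), −2.62 (mPGK-C), −2.17 (mPGK-D), −2.10 (mPGK-E) and −2.95 (mPGK-F). The pools lay within 1 log2 unit of each other, with 2 (mPGK-E) to 6 reporters each, but these same values had placed the stretch. The 2 exceptions were an mPGK-A reporter at chr9:92834610, with 1407 and 1769 DNA reads, 1456 and 1620 RNA reads and an expression of 1.51, and an mPGK-F reporter at chr9:91318277, at 0.22. The mPGK-D reporter 8.73 kb from the first of them lay at −0.14. From there, 16 consecutive reporters up to chr9:95537692 lay below the pool median, the longest unbroken run of either sign on the chromosome.

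The other low stretches with most reporters were spread over the chromosome. The stretch chr9:11605170-14304607 held 16 reporters of all 6 pools at a mean of −2.96, with pool means from −6.27 (mPGK-A, 1 reporter) to −1.58 (mPGK-B, 6 reporters). The stretch chr9:32036879-34559527 held 16 reporters of 5 pools at −2.18, again with every pool below 0. The stretch chr9:47966515-48987891 had the widest range of any, from −12.63 to 3.03 over 16 reporters, with a mean of −2.44 and a median of −2.31. It held both reporters without RNA at chr9:48843138 and chr9:48974348, and ended just past the latter with an mPGK-D reporter that had 2411 and 2522 DNA reads and 6287 and 6177 RNA reads. The stretch chr9:100593836-102101977 held 13 reporters of 5 pools at −2.79, of which 5 were more than 16-fold below the median.

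Among high stretches, the one with most reporters was chr9:108218309-108745415, with 15 reporters of all 6 pools in 527 kb at a mean of 2.12 ± 1.96 (SD). Its pool means ran from 1.07 (mPGK-B) to 3.07 (mPGK-C), and it held the highest reporter of the chromosome. Even here 3 reporters lay below the median, the lowest an mPGK-D reporter at chr9:108526446 with 1505 and 1849 DNA reads, 208 and 229 RNA reads and an expression of −1.24. Only 1 reporter lay between it and the highest one. The stretch chr9:20857576-22029862 held 14 reporters of 5 pools at 1.75, and chr9:57066045-58251508, the widest high stretch at 1185 kb, held 12 reporters of 5 pools at 2.50. The stretches chr9:60860893-61215728 and chr9:96126217-96625404 held 11 reporters each at 2.07 and 2.23, the first from all 6 pools and the second from 5, with pool means from 0.60 (mPGK-C) to 5.17 (mPGK-A, 1 reporter).

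Most stretches drew on several pools with the same sign. Reporters of all 6 pools were present in 3 high and 3 low stretches, and every pool present had a mean of the stretch's sign in 13 of 16 high and 15 of 19 low stretches. The same reporters had chosen the stretches, so this likeness in sign is largely built in, and some of the pool means rest on 1 reporter. Leaving out 1 pool at a time, 11 to 14 of the 16 high stretches and 13 to 17 of the 19 low stretches were still found. A stretch counted as found where newly called stretches of its kind covered the larger part of its span, and as lost otherwise. Each such call reused most of the same reporters, so finding a stretch again is also largely built in. Over 14 other settings, 5 high and 5 low stretches were found each time, among them the low stretches at chr9:90213177-95097685, chr9:47966515-48987891 and chr9:100593836-102101977 and the high ones at chr9:20857576-22029862 and chr9:57066045-58251508.

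To measure the stretches on values that had not chosen them, high and low stretches were called from 5 pools and read in the pool left out, without barcodes listed in several pools. Reporters of the pool left out were higher in the high stretches of the other pools than in the low ones by 3.19 log2 units in mPGK-A, 1.98 in mPGK-B, 3.33 in mPGK-C, 3.17 in mPGK-D, 3.47 in mPGK-E and 2.48 in mPGK-F. The mean difference was 2.93 ± 0.58 (SD, n = 6 pools), or 7.65-fold, in the same direction in 6 of 6 pools (exact two-sided sign-flip permutation test, p = 0.03125, the smallest that 6 pools can give). Each pool also helped to call the stretches read in the others, so the 6 differences were not fully independent, as the test takes them to be. Inside high stretches the pools left out lay at 1.08 ± 0.19, inside low ones at −1.85 ± 0.50 and elsewhere on the chromosome at −0.11 ± 0.11 (SD, n = 6 pools). The number of reporters behind each pool's value was 13 to 30 in high stretches and 10 to 29 in low ones. Both levels were nearer to 0 than the 2.01 and −2.32 of the reporters that had chosen the stretches.

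**Figure D2:**
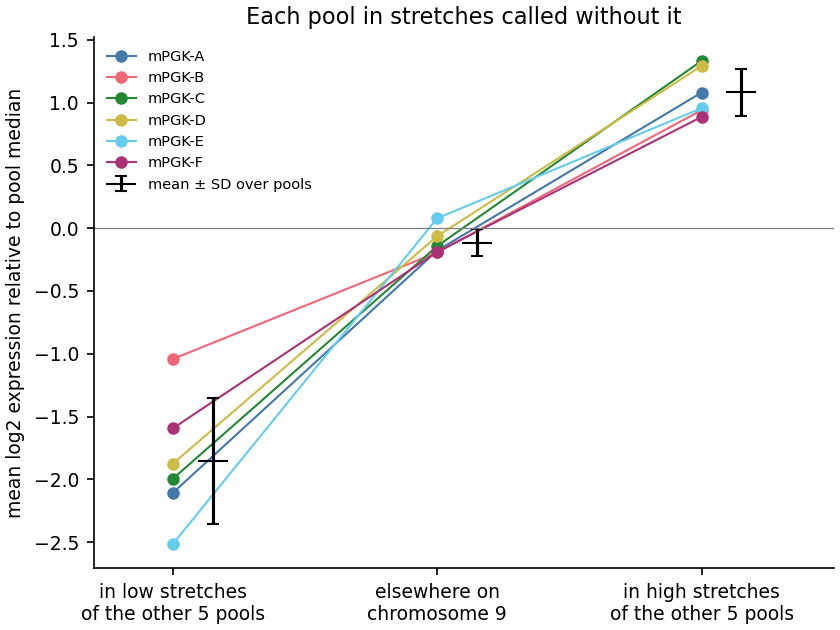
Mean log2 expression relative to the pool median (y axis) of each pool's reporters inside low stretches, elsewhere and inside high stretches called from the other 5 pools (x axis). Points and lines are pools and black bars are the mean ± SD over 6 pools. The high points lie between 0.89 and 1.33 and the low points between −2.51 and −1.04, with no overlap.

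Fixed windows gave a test that did not depend on where stretches were placed. The genome was divided into windows of 5 Mb. The mean of each pool in a window was taken relative to the pool mean over all integrations. The 490 windows with at least 10 integrations from at least 4 pools were tested with limma, with the pools as replicates. Pool means were weighted by their number of integrations, and limma drew the variance of each window towards that of all windows. The SE thus followed mainly the number of reporters, from 0.26 with 70 to 0.65 with 12, and not the spread between the 6 pools. The p-values therefore rest on the number of integrations as well as on the pools. Of the 24 chromosome 9 windows tested, 4 were higher and 3 lower after Benjamini-Hochberg adjustment over all windows. The background over the genome was 12.2% higher and 15.1% lower, so the number of called windows on chromosome 9 was close to that of the genome. Without adjustment, 5 were higher and 6 lower. Without weights, 2 were higher and 2 lower after adjustment. The called windows and the stretches rest on the same reporters.

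The lowest window was chr9:90000001-95000000, with 29 reporters at −2.09 ± 0.41 (SE of the weighted fit, 6 pools, limma adjusted p = 6.42e-05), 4.26-fold below the pool mean. Its pool means were −1.66, −2.45, −2.40, −1.44, −1.91 and −2.77 in mPGK-A to mPGK-F, so 6 of 6 pools were lower. With the same bounds it was called under each of the 12 alternatives computed for it, with limma adjusted p of at most 0.00558, the largest being without weights. On the grid shifted by 2.5 Mb, neither window covering it was called, with chr9:87500001-92500000 at −0.83 (limma adjusted p = 0.105) and chr9:92500001-97500000 at 0.30 (0.579). With 2 Mb windows, chr9:90000001-92000000 (−1.87, limma adjusted p = 0.0255) and chr9:92000001-94000000 (−2.94, 0.00286) were called lower. The next, chr9:94000001-96000000, was not (−0.53, limma adjusted p = 0.463). The window chr9:15000001-20000000 lay at −1.46 ± 0.52 (SE, limma adjusted p = 0.0274), lower in 6 of 6 pools but with only 18 reporters, of which mPGK-A gave 1. Its call was lost in 6 of 12 alternatives, with adjusted p of up to 0.118 without mPGK-E. On the shifted grid, chr9:12500001-17500000 was called lower (−1.07, limma adjusted p = 0.0239), while chr9:17500001-22500000 lay at 0.78 and was not called (0.193). The window chr9:45000001-50000000, with 60 reporters, lay at −0.83 ± 0.29 (SE, limma adjusted p = 0.0256). There 5 pools had means from −1.49 to −0.62, while the 5 reporters of mPGK-C had a mean of 1.06. Its call was lost without mPGK-A (limma adjusted p = 0.0946), mPGK-D (0.0720) or mPGK-E (0.118), and also without weights (0.252). On the shifted grid, chr9:47500001-52500000 was called lower (−1.21, limma adjusted p = 0.00583), while chr9:42500001-47500000 lay at 0.38 and was not called (0.399).

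The 4 higher windows lay near 1 log2 unit. The neighbouring windows chr9:55000001-60000000 and chr9:60000001-65000000 were higher in 6 of 6 pools, at 1.00 ± 0.33 (SE, 46 reporters, limma adjusted p = 0.0151) and 0.92 ± 0.26 (SE, 70 reporters, limma adjusted p = 0.00514). They were the only neighbouring windows called in the same direction, and their pool means ran from 0.35 to 1.86. Without mPGK-B both missed the threshold, at limma adjusted p of 0.0682 and 0.0521, and the second also missed it without weights (0.0661). On the shifted grid, chr9:57500001-62500000 was called higher (1.15, limma adjusted p = 0.00166). The windows chr9:52500001-57500000 (0.52) and chr9:62500001-67500000 (0.67) were not (0.268 and 0.0664). With 2 Mb windows, chr9:58000001-60000000 was called (1.66, limma adjusted p = 0.0136). Those starting at chr9:56000001, chr9:60000001 and chr9:62000001 were not (0.317, 0.240 and 0.0625). The window chr9:105000001-110000000 was also higher in 6 of 6 pools, at 0.89 ± 0.29 (SE, 59 reporters, limma adjusted p = 0.0141), and missed the threshold without mPGK-F (0.0742). On the shifted grid, chr9:107500001-112500000 was called higher (0.98, limma adjusted p = 0.00926), while chr9:102500001-107500000 lay at 0.09 and was not called (0.867). With 2 Mb windows, chr9:108000001-110000000 was called (1.73, limma adjusted p = 0.00401), and chr9:106000001-108000000 was not (0.37, 0.590). The window chr9:40000001-45000000 lay at 0.95 ± 0.33 (SE, 44 reporters, limma adjusted p = 0.0256), higher in 5 of 6 pools with mPGK-B at −0.09. Its call was lost without mPGK-A (limma adjusted p = 0.0630), mPGK-D (0.0790), mPGK-E (0.142) or mPGK-F (0.0526). The unweighted fit lost it as well (limma adjusted p = 0.0846). On the grid shifted by 2.5 Mb, neither window covering it was called, both at 0.38 (limma adjusted p = 0.564 and 0.399).

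**Figure D3:**
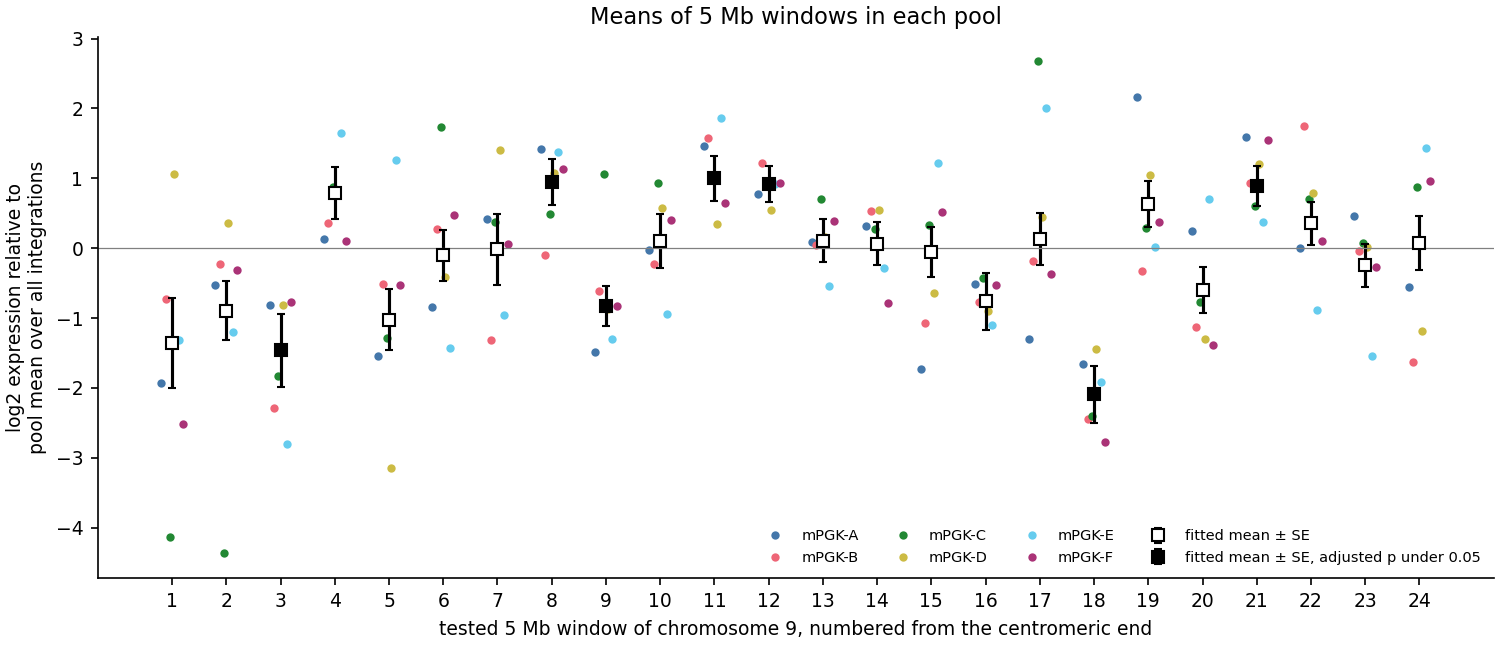
Mean log2 expression relative to the pool mean over all integrations (y axis) in the 24 tested 5 Mb windows of chromosome 9, numbered from the centromeric end (x axis). Coloured points are pools and squares are the fitted mean ± SE, filled where the limma adjusted p was under 0.05, with 4 filled above 0 and 3 below. In window 18, the lowest at −2.09, all 6 pools lie between −2.77 and −1.44.

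Some changes from high to low were abrupt. Of the pairs of neighbouring stretches, 20 were of opposite kind and 14 of the same kind. The distance between opposite neighbours ran from 160 kb to 8856 kb, with a median of 1509 kb, so most were separated by a broad zone of mixed reporters. The 5 shortest were 160 kb, 252 kb, 385 kb, 540 kb and 607 kb. Stretch ends were placed by the running mean over 5 integrations, so the change of level itself can lie some reporters away from them.

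The sharpest pair of edges flanked the smallest stretch, 5 reporters of 4 pools in 26.6 kb at chr9:99310792-99337371 with a mean of 2.996 ± 0.79 (SD). Their barcodes are shown because this island of high reporters has a low stretch on either side.
Island, mPGK-B, chr9:99310792, minus strand: tgctacctctcccagc
Island, mPGK-C, chr9:99312309, plus strand: ccctcaattattccga
Island, mPGK-A, chr9:99312807, plus strand: agcttacttttaatcc
Island, mPGK-F, chr9:99318589, plus strand: catgtaagctcacctg
Island, mPGK-A, chr9:99337371, minus strand: ttggtaccactcgcta

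In order along the chromosome these 5 reporters lay at 1.79, 3.61, 3.24, 3.68 and 2.65. The mPGK-F reporter had 700 and 550 DNA reads against 3115 and 2981 RNA reads, and the weakest, in mPGK-B, had 2251 and 2228 DNA reads against 3022 and 2700 RNA reads. To the left, the low stretch chr9:98029923-99151113 had a mean of −2.67 and ended 160 kb away with an mPGK-D reporter that had 274 and 283 DNA reads and 6 and 8 RNA reads (−3.53). The stretch means on the sides of this edge differed by 5.67 log2 units, or 50.8-fold. To the right, the next reporter, in mPGK-B and 46.5 kb from the island, had 361 and 605 DNA reads, 17 and 65 RNA reads and an expression of −2.35. The low stretch that follows, chr9:99589863-100223499, began 252 kb from the island and had a mean of −1.51. The island was lost in 7 of 14 other settings, 4 of which left out a pool, and the low stretch to its right in 8. Each held 5 reporters, the fewest the rule allows. The test of the pools left out does not bear on this island alone.

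At the other 3 of the sharpest edges, stretch means differed by 3.63 to 4.69 log2 units, against 5.67 and 4.51 at the edges of the island. Part of each difference is built in, since the rule sets a limit for high and for low stretches. From the low stretch chr9:60280042-60475711 to the high stretch beginning at chr9:60860893, means differed by 4.11 log2 units over 385 kb, with 3 reporters between at a mean of 0.87. From the high stretch ending at chr9:78352775 to the low stretch beginning at chr9:78892785, the fall was 4.69 over 540 kb, between a last reporter at 3.54 and a first one at −3.17. The 2 reporters between lay at 2.91 (mPGK-D) and −1.72 (mPGK-A), so the change of sign took up only part of that distance. From the low stretch ending at chr9:106781808 to the high stretch beginning at chr9:107388885, the means differed by 3.63 over 607 kb. The stretches of these edges held 5 to 11 reporters each, and several were not found under all 14 other settings. The low stretch at chr9:60280042-60475711 was lost in 6 of them. The high stretch beginning at chr9:107388885 was lost in 7, 4 of which left out a pool, and the low stretch before it in 3. At the remaining edge, the high stretch ending at chr9:78352775 was lost in 3 and the low stretch beginning at chr9:78892785 in 1.

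Integrations were unevenly spread. The median distance between neighbours was 66.9 kb, 40 of the distances were under 1 kb and the shortest was 1 bp, between reporters of opposite strand in mPGK-A and mPGK-E. Of 122 bins of 1 Mb, 2 held no integration, the median held 7 and the fullest 22, at chr9:108000001-109000000, where the mean was 1.74. The 6 gaps of at least 1 Mb took up 6.73% of the span. The longest, chr9:4191794-6010047 and chr9:6010047-7827318, each spanned 1.82 Mb and were separated by a single mPGK-F reporter with 637 and 576 DNA reads and 1 and 9 RNA reads (−5.94). The next were chr9:18938246-20142396 (1.20 Mb), chr9:25288767-26465165 (1.18 Mb) and chr9:72902662-73998681 (1.096 Mb). The last separated a reporter at 2.75, just past a high stretch, from one at −4.36, so a change of level coincided with an empty megabase there. Mappability and TTAA content were not used here, so the reason for a gap was not tested.

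Reporters next to gaps were low in most pools. The 65 reporters flanking the 35 gaps of at least 0.5 Mb, a limit chosen after the data were seen, had a mean of −1.06 ± 2.39 (SD), against −0.10 ± 2.39 for the other 906. By pool, the difference was 0.16 in mPGK-A, −1.70 in mPGK-B, −0.93 in mPGK-C, −0.30 in mPGK-D, −1.55 in mPGK-E and −0.98 in mPGK-F. The mean of −0.89 ± 0.72 (SD, n = 6 pools) was below 0 in 5 of 6 pools and did not pass the threshold (exact two-sided sign-flip permutation test, p = 0.0625). In the same exact permutation test it passed, with p = 0.03125, when the lowest 10% of DNA counts were left out (−1.25) or when barcodes of several pools were used once (−0.87).

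Crowding went with expression more steadily. With 0 other integrations of any pool within 100 kb, 155 reporters had a mean of −1.27 ± 2.16 (SD). With 1 to 2 neighbours the mean was −0.42 (428 reporters), with 3 to 5 it was 0.25 (297 reporters), and with 6 or more it was 1.52 ± 2.05 (91 reporters). The crowded minus the isolated class was 3.08 in mPGK-A, 2.18 in mPGK-B, 2.33 in mPGK-C, 2.31 in mPGK-D, 3.01 in mPGK-E and 3.73 in mPGK-F. The mean of 2.77 ± 0.60 (SD, n = 6 pools) was higher in 6 of 6 pools (exact two-sided sign-flip permutation test, p = 0.03125, the smallest possible), a comparison chosen with the data in view. In the middle classes the pools were less alike, since in mPGK-A the class of 3 to 5 neighbours (−0.53) lay below that of 1 to 2 (−0.06), and in mPGK-C these classes were level (−0.21 and −0.20).

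**Figure D4:**
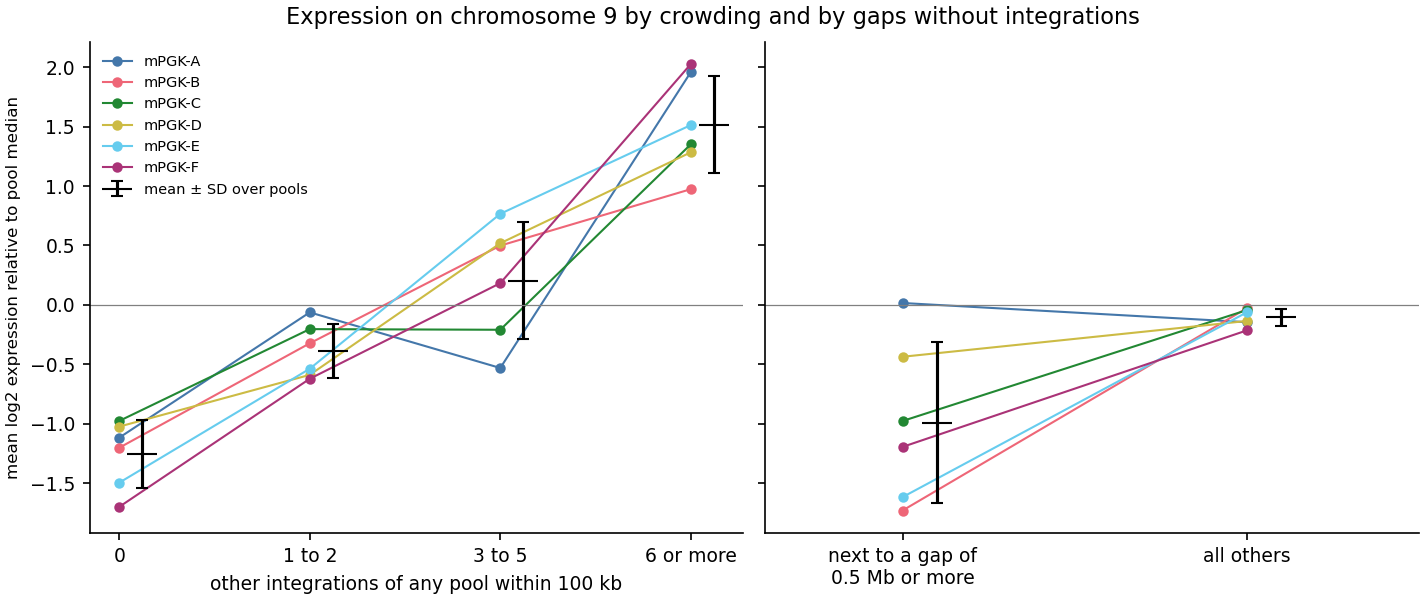
Mean log2 expression relative to the pool median (y axis) by the number of other integrations within 100 kb (left) and for reporters next to a gap of at least 0.5 Mb against all others (right). Coloured lines are pools and black bars the mean ± SD over 6 pools. Isolated reporters lie between −1.70 and −0.98 and crowded ones between 0.97 and 2.03, with no overlap, while mPGK-A shows no drop beside gaps.

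Very close reporters could still differ. Of the 40 neighbouring pairs within 1 kb, 36 came from different pools, 20 differed by less than 2-fold and 1 by more than 16-fold, with a median difference of 0.91 log2 units. The barcodes of the 3 pairs that differed most are shown because each pair reads almost the same position in different pools.
Pair 1, mPGK-D, chr9:120727878, plus strand: caaaacacgaactccg
Pair 1, mPGK-E, chr9:120728132, plus strand: aactagcatcaaccgg
Pair 2, mPGK-C, chr9:60410295, plus strand: tataacatttcccatg
Pair 2, mPGK-F, chr9:60410918, plus strand: ggaacgagtcaacatc
Pair 3, mPGK-C, chr9:3404602, plus strand: ttagcatccttaatta
Pair 3, mPGK-E, chr9:3404790, minus strand: gcataataccaagaca

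In the first pair, 254 bp apart, the mPGK-D reporter had 442 and 523 DNA reads and 23 and 38 RNA reads (−2.30). The mPGK-E reporter had 1928 and 1653 DNA reads and 2941 and 3442 RNA reads (2.38). They differed 25.6-fold, each in both replicates and each called by edgeR in its direction (adjusted p = 0.00405 lower and 2.65e-06 higher). In the second pair, 623 bp apart, the difference was 10.9-fold, but the replicates of the mPGK-C reporter, −1.89 and 0.48, were themselves far apart. In the third, 188 bp apart on opposite strands, reporters at −1.06 and −4.13 differed 8.39-fold with replicates that lay close together. That pair was chosen, like the others, for its difference, so these values are a description.

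Likeness was highest within 1 kb and lowest beyond 1000 kb, without a steady fall between. Over all pairs of chromosome 9 reporters within 1 kb, the correlation of expression was 0.659 (43 pairs), and for the pairs from different pools, which share no library, it was 0.667. It was 0.288 at 1 to 5 kb (69 pairs), 0.273 at 5 to 20 kb (182 pairs), 0.176 at 20 to 50 kb (322 pairs), 0.205 at 50 to 100 kb (546 pairs), 0.179 at 100 to 200 kb (980 pairs), 0.166 at 200 to 500 kb (2710 pairs), 0.05 at 500 to 1000 kb and 0.01 at 1000 to 5000 kb. A reporter enters many pairs, so these correlations carry no p. The value within 1 kb was above the range of the other 18 autosomes (−0.01 to 0.600), while chromosome 9 lay below their median from 1 kb to 50 kb, above it from 50 kb to 500 kb and below it again from 500 kb to 5000 kb.

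**Figure D5:**
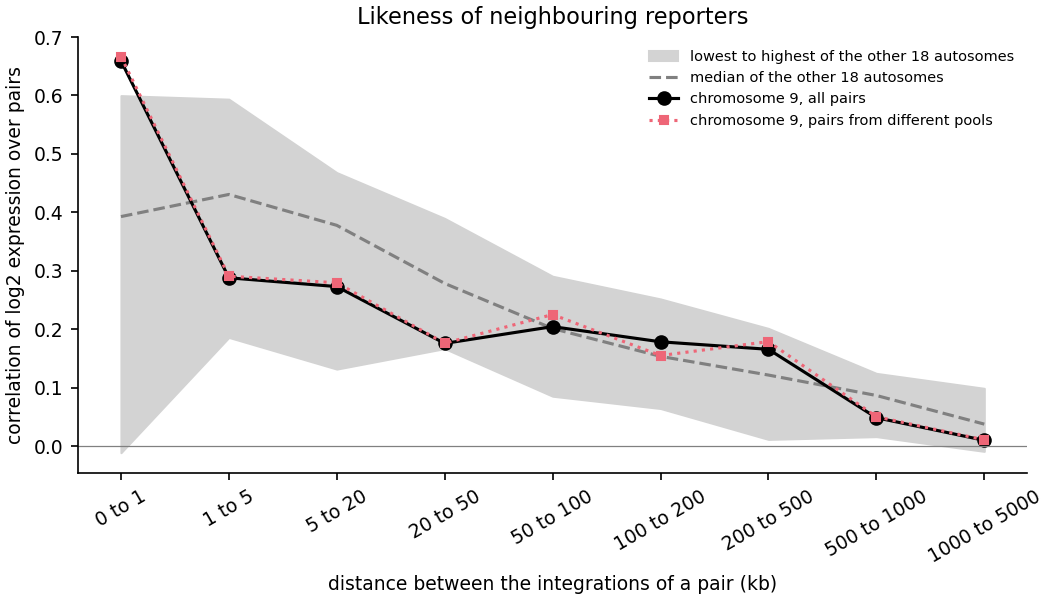
Correlation of log2 expression over pairs of integrations (y axis) in classes of the distance between them in kb (x axis). Black circles are all chromosome 9 pairs, red squares those from different pools, the dashed line the median and the grey band the range of the other 18 autosomes. Chromosome 9 falls from 0.659 within 1 kb to 0.01 at 1000 to 5000 kb.

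Against the other 18 autosomes, described without a test, chromosome 9 lay inside their range in each measure below. It held 8.05 integrations per Mb of listed span (other autosomes 6.04 to 8.997, median 7.27) and 6 gaps of at least 1 Mb (3 to 20, median 9.5). Its share of reporters in high stretches, 14.8%, and in low stretches, 19.2%, lay inside ranges of 5.77% to 25.7% and 10.8% to 27.4%. The median high and low stretches of 406 kb and 1107 kb compared with medians over the other autosomes of 322 kb and 1066 kb. The difference between high and low stretches in the pools left out, 2.93, lay within the range of 1.82 to 3.26 over the other autosomes.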

How the data were processed

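Barcoded mPGK reporters were measured in 6 pools of EBRTcH3 cells. The authors' deposited table lists, per integration, its pool, barcode, chromosome, position and strand with raw read counts in each replicate, for RNA and for DNA. Bowtie2 2.0 and mm9 are named in the submitters' processing notes. The sources used here do not give how counts of the 2 PCRs were combined, which barcodes were kept, or whether positions start from 0 or 1. Totals are sums over listed barcodes, not library depth.

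Expression used a pseudocount of 0.5 RNA reads. RNA and DNA counts were compared per pool with edgeR 4.0.16 in R 4.3.3 (TMM scaling, then shifted by 0.23 to 0.27 log2 units to a pool median of 0), with DESeq2 1.42.0 as an alternative. Windows were tested with limma 3.58.1, weighted by integrations. The threshold was an adjusted p of 0.05. Both models were tested on simulated data. Other values came from Python 3.11.15, numpy 2.4.6, scipy 1.17.1 and pandas 2.3.3.

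The labels number RNA and DNA replicates alike, and same-numbered ones were taken to come from the same culture. Their deviations had correlations of −0.00213 to 0.0575 across barcodes.

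Named items were the 5 highest and 5 lowest integrations, every called window, the 5 high and 5 low stretches with most integrations and the widest of each, the 5 longest gaps, the 5 sharpest edges (opposite neighbours with the shortest distance) and 3 close pairs. The members, lists and tests were chosen with earlier results of these data known, and the island and the exceptions within stretches after their values were seen. Alternatives were another pseudocount, low DNA counts left out, shared barcodes used once, each replicate or pool left out, and other windows, weights, run lengths and limits.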

Additional observations from a re-analysis of the deposited data

Results flagged for a closer look

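Of 31 sets of 6 pool values examined on chromosome 9, 4 had a pool far from the others by Dixon's criterion (critical value 0.625), where chance gives about 1 in 20. In the window chr9:10000001-15000000, mPGK-C lay at −4.37 with 4 reporters, while the other pools lay between −1.20 and 0.35. In the window chr9:45000001-50000000, mPGK-C lay at 1.06 with 5 reporters, while the other pools lay between −1.49 and −0.62. In the window chr9:115000001-120000000, mPGK-E lay at −1.54 with 8 reporters, while the other pools lay between −0.27 and 0.46. The replicate error over chromosome 9 reporters was 0.898 log2 units (SD) in mPGK-E and 0.682 to 0.738 in the other pools.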

How the results depend on the processing

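The held-out difference between high and low stretches (2.71 to 3.15 over 6 alternatives) and the crowded minus isolated difference (2.55 to 2.91 over 5) kept their direction and their side of the threshold. The level of the chromosome (0.001 to 0.07 over 12) kept its direction, and its p stayed above 0.05. With a pool left out this was fixed in advance, since 5 pools give no p below 0.0625 in the exact two-sided sign-flip permutation test. Without mPGK-F that smallest p was reached, at a level of 0.05 (same exact permutation test, p = 0.0625). With the replicate block, 356 reporters were called higher and 320 lower, against 363 and 324 without it, 942 of the 971 reporters had the same call, and the block was used in no other test. Other count models, scalings and RNA minimums gave 323 to 350 higher and 297 to 361 lower, including 334 to 337 higher and 297 to 306 lower without one RNA replicate. A replicate of RNA and DNA could not be left out together, since no residual degrees of freedom remain. The strand difference turned to 0.047 without mPGK-B and 0.00301 without mPGK-D. Higher windows numbered 2 on the shifted grid, without weights, without mPGK-B and without mPGK-F, against 4, and lower windows 6 with 2 Mb windows, against 3, where the construction tests more windows. The causes of the others were not tested. Over the alternatives, windows called higher numbered 2 to 4 and lower 2 to 6, while stretches numbered 11 to 24 high and 13 to 23 low. The flank of 0.5 Mb gaps passed at −1.25 without the lowest 10% of DNA counts and at −0.87 with shared barcodes used once (range −1.25 to −0.76). A minimum of 0.5 Mb gave 35 gaps in place of 6. Likeness over different pools was 0.667 within 1 kb and 0.179 at 200 to 500 kb. Depth limits the lowest reporters most, since the error was 1.20 log2 units where RNA reads were few, and a stretch can only be seen where at least 5 integrations fall.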

Other observations

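The fullest megabase bins of chromosome 9 were not alike in level. After chr9:108000001-109000000, with 22 reporters at a mean of 1.74, came chr9:61000001-62000000 with 21 at 0.86, chr9:72000001-73000000 with 19 at 1.32 and chr9:114000001-115000000 with 17 at 1.15. The next 4 bins held 16 reporters each, from all 6 pools. Their means were 1.70 at chr9:96000001-97000000, −0.02 at chr9:67000001-68000000, −0.48 at chr9:83000001-84000000 and −0.60 at chr9:100000001-101000000.

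Longer runs on one side of the pool median held up to 13 consecutive reporters above it, at chr9:20327065-21890550 and at chr9:96126217-96651681, both from 5 pools, and up to 16 below it. There were 373 runs in all, of which 13 above and 17 below the median had at least 7 reporters. The run below the median at chr9:11324569-13422785 held 11 reporters of all 6 pools at a mean of −3.34.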
